A study of Homo sapiens with 72 samples.

Results

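The clustered protocadherins, a family of adhesion proteins encoded side by side on chromosome 5, were followed in 3 immortalized human epithelial lines of the lower genital tract that were exposed to polyamines and to live Gardnerella vaginalis (GV). Members were chosen by gene symbol alone, without the pseudogenes, which gave 53 of the 62266 genes in the count table. Of these, 15 belonged to the alpha cluster, 16 to the beta cluster and 22 to the gamma cluster, and 1 annotated pseudogene with a matching name, PCDHA14, was left out. On GRCh38 with the GENCODE 44 gene models the alpha genes span chr5:140786136-141012347, the beta genes chr5:141051374-141249365 and the gamma genes chr5:141330514-141512977, all on the plus strand. Ribosome-depleted total RNA was sequenced from Ect/E6E7 ectocervical (Ecto), End1/E6E7 endocervical (Endo) and VK2/E6E7 vaginal (VK2) cells. Each is 1 line that carries the human papillomavirus E6 and E7 genes, in every group. Cells were pretreated for 4 h with 4 mM putrescine (PUT), 400 µM spermidine (SPD) or 400 µM spermine (SPM), or left without pretreatment (NT), and were then kept for 24 h with 10000000 colony-forming units of GV per well (PUT+GV, SPD+GV, SPM+GV, NT+GV) or without bacteria (PUT+noGV, SPD+noGV, SPM+noGV, NT+noGV). The 8 conditions in 3 lines had 3 libraries each, 72 in all, with 20152143 to 42767996 counts per library (median 31872238.5). The labels number the replicates but do not say that they were separate cultures, so p-values measure the spread between these libraries only.

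Clustered protocadherins are cadherin-type membrane proteins whose ectodomains bind the same isoform on a neighbouring cell. They are best known from neurons, where each cell switches on a few members by promoter choice: CTCF and cohesin bring a distant enhancer to one of many tandem promoters, and the resulting mix of isoforms lets a neuron tell its own branches from those of others. Alpha and gamma transcripts join a variable first exon to constant exons that all members of the cluster share, whereas each beta gene is a single exon. The C-type genes at the downstream ends of the alpha and gamma clusters (PCDHAC1, PCDHAC2, PCDHGC3, PCDHGC4 and PCDHGC5) are used more steadily across neurons than the others. Methylation of these clusters has been described in several epithelial tumours.

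The promoters of most members are known for a short conserved element around the letters CGCT. The windows printed here hold these letters in some of the genes that the results turn on, so that the clusters can be compared. They are 30-base windows taken from the 250 bases before each start, from RefSeq on GRCh38.p14, plus strand, 5′ to 3′, with CGCTG in capitals.
PCDHAC1 (chr5:140926269-140926298): ccgctcggcagctccaCGCTGagtcccgcc
PCDHAC2 (chr5:140966304-140966333): gtgttcctgcggtcCGCTGggatccggcag
PCDHAC2 (chr5:140966367-140966396): gagcagtccgggttCGCTGtccgccacttc
PCDHA6 (chr5:140827899-140827928): gagccgcatgatgtCGCTGtctaccatgaa
PCDHB2 (chr5:141094546-141094575): gagacgcggggtggCGCTGcagccttagaa
PCDHB5 (chr5:141135176-141135205): aaattaggacgcctggtggCGCTGcaggct
PCDHB13 (chr5:141213867-141213896): aggacgcgtggtggCGCTGcaggataagaa
PCDHGA7 (chr5:141382651-141382680): aggactcacagcgcCGCTGttcaccaacca
PCDHGB4 (chr5:141387619-141387648): ctgactctgggcgcCGCTGttggccaaagt
PCDHGA8 (chr5:141392570-141392599): aggactgtaagcgcCGCTGttcacctactg
PCDHGB5 (chr5:141397865-141397894): ctgactctgggcgcCGCTGttggccaaagt
PCDHGA10 (chr5:141412933-141412962): aggactctgagcgcCGCTGttcacctacta
PCDHGC3 (chr5:141475882-141475911): gggactctgtgtgcCGCTGtcggccaatga
The promoter table held 47 of the 53 members. PCDHA3, PCDHA13, PCDHB6, PCDHB11, PCDHGA12 and PCDHGC5 were not matched. PCDHA11, PCDHA12 and PCDHB14 were matched but held no CGCTG on the sense strand, so no window of them is printed. PCDHGC3 holds another CGCTG window (chr5:141475901-141475930) that is not printed. On the sense strand CGCTG occurred in 8 of 13 alpha, 11 of 14 beta and 20 of 20 gamma promoters, against 24.8% of all 35116 promoters of the same length (9, 11 and 20 on either strand, against 40.8%). The letters around it differed by cluster. GTGGCGCTG was in the same 11 of 14 beta promoters and in 0.293% of all promoters (0.470% on either strand). GTCGCTG was in 6 of 13 alpha and 6 of 20 gamma promoters, against 1.18% of all (2.37% on either strand), and GCCGCTGT was in 11 of 20 gamma promoters, against 0.644% of all (1.23% on either strand). Each of these longer strings contains CGCTG, so the matches are not separate. The printed windows of PCDHAC1 and PCDHAC2 hold none of the longer strings and match CGCTG alone. The printed windows of PCDHGB4 and PCDHGB5 are identical, and their levels differed in opposite ways between Endo and Ecto. A match is a description of the letters only, not a measured binding site.

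The lines carried markers of both squamous and simple epithelium. The 6 keratinocyte markers had median sums of 6222 CPM (counts scaled to a common library size) in Ecto, 18716 CPM in Endo and 37251 CPM in VK2, led by the basal keratin KRT5 (3523, 10379 and 17789 CPM). The 8 simple-epithelium markers had median sums of 3822, 3608 and 2486 CPM in the same lines, with most of it from KRT8, KRT18 and KRT19 in Ecto and VK2 and from KRT19 and KRT7 in Endo. KRT7 alone had medians of 13.4, 1130 and 4.05 CPM. Of the 9 neuron and glia markers, RBFOX3, SNAP25, STMN2, NEUROD1, GFAP and OLIG2 had medians of at most 0.162 CPM in every line. The other 3 were counted clearly, with medians of 48.9, 72.7 and 77.6 CPM in Ecto, Endo and VK2 for MBP, which is also transcribed outside glia, of 14.8, 7.53 and 16.1 CPM for SYT1 and of 6.23, 13.5 and 6.37 CPM for MAP2. The whole list summed to 57.7-98.8 CPM in Ecto, 70.7-129 CPM in Endo and 53.2-141 CPM in VK2. In bulk RNA, fewer cells that transcribe a gene and less RNA of it per cell cannot be told apart.

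The alpha and gamma members differ mainly in their first exon, which bears on every value for a single gene. Stretches of 31 bases that occur in every member of a cluster numbered 2839 for alpha and 2147 for gamma, and 0 for beta. Over the transcripts of a member, 28.5-71.5% (alpha), 41.8-93.9% (beta) and 26.6-62.1% (gamma) of such stretches belonged to 1 gene alone. The deposited counts are estimates that divide reads from the shared exons among variants, so the split within alpha and within gamma is uncertain while the sum over a cluster is not touched by that split. PCDHGC3 also has a transcript of 2346 bases with 7.21% of its 31-base stretches in no other gene, and PCDHAC2 one of 2051 bases with 3.76%. For these genes the estimate rests partly on shared exons. PCDHGB4 had the lowest share of stretches of its own among the gamma genes, 26.6%. Of the stretches of PCDHB5, 13.2% also occur in genes that are not members.

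Many members lay near the limit of detection, and more so in Ecto. A mean of at least 1 CPM over the 24 libraries of a line was reached by 8 members in Ecto, 21 in Endo and 13 in VK2, whereas 25, 11 and 17 members averaged fewer than 3 counts. The filter on low counts passed 23 members in Ecto (1 alpha, 6 beta, 16 gamma), 39 in Endo (8, 10, 21) and 30 in VK2 (5, 6, 19), and the counts of calls given here are over these members only. No member was at 0 in all 24 libraries of a line.

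**Figure D1:**
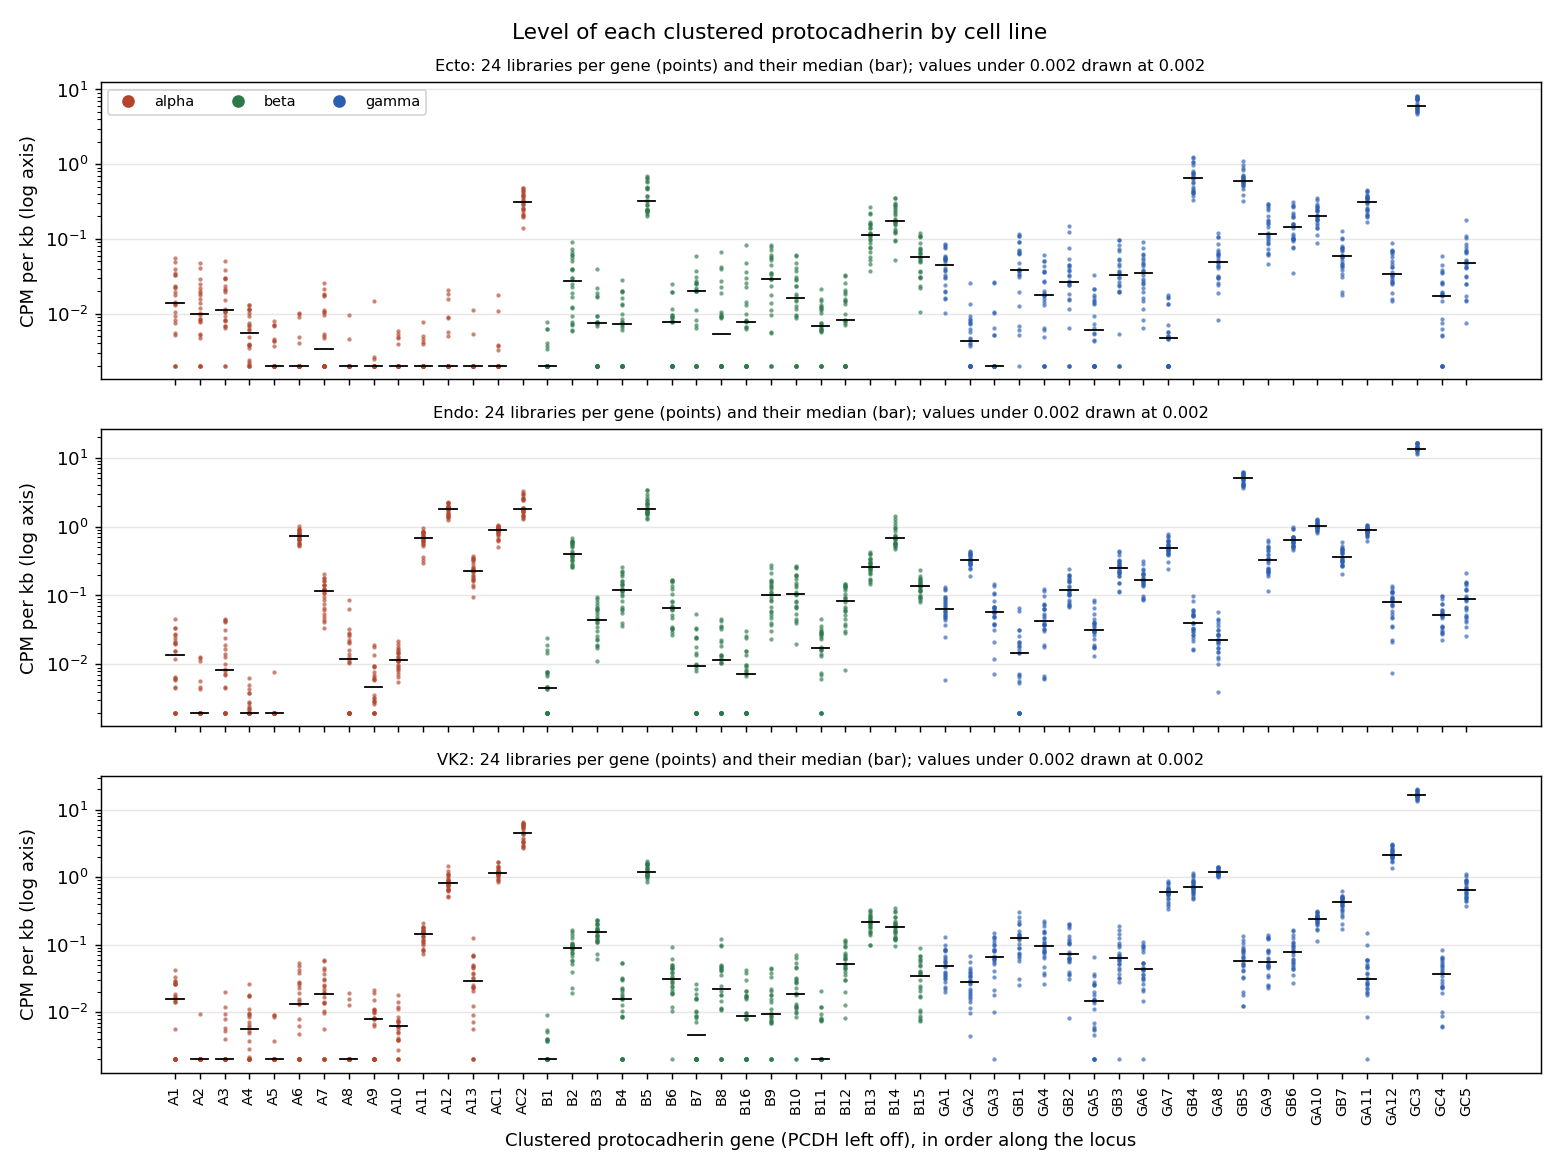
Level of each of the 53 members in CPM per kilobase of merged exon length (log axis), in order along the locus. Points are the 24 libraries of each line (Ecto, Endo and VK2), bars are medians, and values under 0.002 are drawn at 0.002. PCDHGC3 stood highest in each line, with means of 6.46, 13.95 and 16.7.

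In all 3 lines PCDHGC3, a C-type gamma gene, was the most abundant member per length. Its mean over 24 libraries was 6.46 CPM per kb in Ecto, 13.95 in Endo and 16.7 in VK2, and it took 69.7%, 57.7% and 68.3% of the estimated gamma counts. The other C-type gamma genes were far lower: PCDHGC5 averaged 0.0548, 0.0922 and 0.681 CPM per kb and PCDHGC4 0.0179, 0.0531 and 0.0367. Behind PCDHGC3 the lines used different gamma genes. Ecto had PCDHGB4 at 0.681 and PCDHGB5 at 0.640 CPM per kb. Endo had PCDHGB5 at 4.99, which took 18.6% of its gamma counts, then PCDHGA10 at 1.04. VK2 had PCDHGA12 at 2.27 and PCDHGA8 at 1.22. The order of the 22 gamma genes by level was unlike between Endo and VK2 (Spearman's rho 0.0073 across genes, which are not independent and share reads) and more alike between Ecto and Endo (0.44) and between Ecto and VK2 (0.39).

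The alpha cluster was led by its C-type gene PCDHAC2, which made up 78.6% of the alpha counts in Ecto, 31.4% in Endo and 65.2% in VK2. Its level was 0.318, 2.05 and 4.64 CPM per kb. In Ecto PCDHAC2 was the only alpha gene that passed the filter. Endo added PCDHA12 at 1.77, PCDHAC1 at 0.861, PCDHA6 at 0.735 and PCDHA11 at 0.664 CPM per kb, and VK2 added PCDHAC1 at 1.20 and PCDHA12 at 0.851. Across the 15 alpha genes the order was alike in Endo and VK2 (rho 0.86). For Ecto rho was 0.0071 with Endo and 0.079 with VK2. In Ecto 11 of the 15 genes averaged fewer than 3 counts, so most of its order lies near the limit of detection. These low values therefore do not show that Ecto used the alpha genes in another order.

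In the beta cluster, in which no 31-base stretch occurs in all 16 genes, PCDHB5 led in each line. It stood at 0.381 CPM per kb in Ecto, 2.01 in Endo and 1.27 in VK2, and held 35.6%, 42.3% and 54.5% of the beta counts. PCDHB14 (0.196) and PCDHB13 (0.120) followed in Ecto, PCDHB14 (0.754) and PCDHB2 (0.444) in Endo, and PCDHB13 (0.212) and PCDHB14 (0.189) in VK2, all in CPM per kb. The order of the 16 beta genes was alike in all pairs of lines (rho 0.76 for Ecto and Endo, 0.58 for Ecto and VK2, 0.77 for Endo and VK2).

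Between the untreated lines (NT+noGV) most tested members differed. Of 41 members tested in the model over all lines, 34 were higher and 1 lower in Endo than in Ecto, where 32% and 31.9% of all tested genes were higher and lower. In VK2 against Ecto 22 were higher and 4 lower (32% and 31.8% of all genes), and in VK2 against Endo 8 were higher and 19 lower (30.4% and 29.3%). The shares of members higher in Endo and in VK2 than in Ecto, and lower in VK2 than in Endo, were above the background of their contrasts. The filter on low counts passed 23 members in Ecto alone, 39 in Endo and 30 in VK2. Members can thus be among the 41 because they are high in Endo or VK2, so these shares are a description only. With each single library left out in turn, 28 of 35, 18 of 26 and 24 of 27 of these calls were kept.

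PCDHAC2 was highest in VK2 and lowest in Ecto. Its untreated libraries had 37.9, 40.5 and 39.7 CPM in VK2, 17.7, 18.7 and 18.3 CPM in Endo and 2.32, 2.04 and 2.40 CPM in Ecto. No library of a line overlapped with another line (VK2 against Endo: log2 fold change 1.11 ± 0.08, edgeR adjusted p = 8.01e-20, with the SE of the fit after ±; Endo against Ecto: log2 fold change 3.00 ± 0.11, edgeR adjusted p = 1.80e-35). PCDHGC3 was higher in both other lines than in Ecto (1.54 ± 0.06 in VK2 and 1.44 ± 0.06 in Endo on the log2 scale, edgeR adjusted p = 9.94e-35 and 3.24e-33).

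PCDHGB5 marked Endo, and PCDHGA8 and PCDHGA12 marked VK2. PCDHGB5 had 28.3, 28.98 and 27.8 CPM in Endo, against 3.14, 3.32 and 2.59 CPM in Ecto and 0.397, 0.156 and 0.316 CPM in VK2. Over all conditions its lowest Endo library (17.8 CPM) was above its highest library of the other lines (5.47 CPM). PCDHGB4, which has the same promoter window, went the other way, with 0.224, 0.401 and 0.226 CPM in Endo, against 3.41, 3.02 and 4.02 CPM in Ecto (log2 fold change -3.61 ± 0.28, edgeR adjusted p = 1.70e-18). It was 3.67 higher on the log2 scale in VK2 than in Endo. PCDHGA8 had 9.13, 9.06 and 10.0 CPM in VK2, against 0.149, 0.401 and 0.129 CPM in Endo (log2 fold change 5.34 ± 0.27, edgeR adjusted p = 8.60e-27). The lowest VK2 library over all conditions was 8.83 CPM for PCDHGA8, 6.69 CPM for PCDHGA12 and 1.90 CPM for PCDHGC5, and the highest library elsewhere was 1.03, 0.667 and 1.08 CPM.

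9 members of the 3 clusters were separated in the same way in Endo: PCDHA6, PCDHA11, PCDHB2, PCDHB14, PCDHGA2, PCDHGB5, PCDHGB6, PCDHGA10 and PCDHGA11 had every Endo library above every library of Ecto and VK2. These were 21.95% of the 41 members tested in the model over all lines, where 2.62% of all tested genes were separated in this way. The 3 members separated in VK2 were 7.32% of the 41, against 3.1% of all tested genes. Members can be among the 41 because they are high in Endo or VK2, so these shares too are a description only. Of the 9 Endo genes PCDHA6 was the furthest apart by ratio, with 3.25 CPM in its lowest Endo library and 0.330 CPM in its highest library elsewhere. The untreated Ecto libraries held no PCDHA6 count, so its level in Endo was at least 164-fold higher, taking 3 counts over the 3 Ecto libraries as the floor. By the same floor PCDHA7, PCDHA13 and PCDHGA3 were at least 16.4-fold, 40.6-fold and 17.1-fold higher in Endo than in Ecto. In VK2 their levels were 7.13-fold, 2.03-fold and 14.5-fold the Ecto floor, from 18, 5 and 37 counts over the 3 VK2 libraries. The error of these counts is not in the values, so that of PCDHA13 is no firm lower bound.

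The first treatment comparison asks what differed after GV in cells that had no polyamine. Members rose in each line and few fell. In NT+GV against NT+noGV, 9 members rose and 0 fell in Ecto, where 20.9% and 23.7% of all genes rose and fell. In Endo 12 rose and 2 fell (25.7% and 28.7% of all genes), and in VK2 4 rose and 1 fell (13.9% and 12.5%). The share of tested members that rose was above the background in Ecto and close to it in Endo and VK2. The share that fell was below it in each line. A member can pass the filter on low counts through the groups where it is high. The shares in this and the other treatment comparisons are therefore a description only. A gene rose or fell here where its adjusted p was under 0.05 in edgeR's quasi-likelihood test. In Ecto the count went to 5 without NT+noGV replicate 1, and in VK2 to 3 without NT+GV replicate 2. Of the 6 keratinocyte markers 1 rose and 4 fell in Ecto, 1 and 3 in Endo and 1 and 1 in VK2, with sums of 6036 to 6212 CPM in NT+GV and 7648 to 8003 CPM in NT+noGV of Ecto. Their part in the members' change was not tested.

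Both beta and gamma genes were among the members that rose. In Ecto 4 of 6 tested beta genes and 5 of 16 gamma genes rose, in Endo 7 of 10 and 4 of 21, and in VK2 2 of 6 and 2 of 19. Median log2 fold changes were 0.96, 0.71 and 0.75 in Ecto, Endo and VK2 over the tested beta genes and 0.62, 0.18 and 0.23 over the gamma genes, while the medians over all genes were 0.00292, -0.000889 and 0.00140. The clusters were not tested against each other. PCDHB5 had 1.58, 2.24 and 1.70 CPM in NT+GV and 0.682, 0.982 and 0.855 CPM in NT+noGV Ecto cells (log2 fold change 1.13 ± 0.19, edgeR adjusted p = 2.03e-05). In Endo it had 7.35, 7.38 and 7.50 CPM in NT+GV and 5.75, 5.44 and 5.42 CPM in NT+noGV (log2 fold change 0.43 ± 0.10, edgeR adjusted p = 4.49e-04). The NT+GV libraries lay above the NT+noGV libraries in both lines. In VK2 the PCDHB5 values were 4.26, 5.38 and 4.82 CPM in NT+GV and 3.17, 3.55 and 3.95 CPM in NT+noGV (log2 fold change 0.45 ± 0.13, edgeR adjusted p = 0.00866), a call that was lost without NT+noGV replicate 1 or NT+GV replicate 2. PCDHB14 rose in Endo, where it had 3.22, 3.78 and 3.33 CPM in NT+GV and 2.39, 2.50 and 2.22 CPM in NT+noGV (log2 fold change 0.55 ± 0.13, edgeR adjusted p = 5.25e-04). PCDHB12 of Endo and PCDHB9 of Ecto had larger fold changes (2.07 ± 0.50 and 3.00 ± 0.80 on the log2 scale) at levels of at most 0.537 and 0.229 CPM.

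The C-type genes did not share 1 direction. PCDHGC3 rose in Ecto, with 40.6, 41.04 and 39.2 CPM in NT+GV and 26.9, 27.96 and 30.3 CPM in NT+noGV (log2 fold change 0.50 ± 0.07, edgeR adjusted p = 1.25e-06). It also rose in VK2, with 94.7, 102 and 91.03 CPM in NT+GV and 76.1, 85.5 and 85.9 CPM in NT+noGV (log2 fold change 0.23 ± 0.05, edgeR adjusted p = 4.11e-04). In Endo it had 75.4, 73.5 and 67.1 CPM in NT+GV and 74.9, 79.1 and 77.4 CPM in NT+noGV and was not called (log2 fold change -0.09 ± 0.04, edgeR adjusted p = 0.0668). The groups were apart in Ecto and VK2 and overlapped by 1 NT+GV library in Endo. PCDHAC2 fell in Endo, to 8.70, 10.9 and 9.79 CPM in NT+GV, against 17.7, 18.7 and 18.3 CPM in NT+noGV (log2 fold change -0.89 ± 0.09, edgeR adjusted p = 7.55e-10). It fell in VK2 too, to 32.8, 28.8 and 32.1 CPM in NT+GV, against 37.9, 40.5 and 39.7 CPM in NT+noGV (log2 fold change -0.31 ± 0.06, edgeR adjusted p = 6.93e-05). In Ecto its fold change was 0.28 ± 0.17 and was not called (edgeR adjusted p = 0.189). PCDHGC5 rose in VK2, with 5.25, 5.58 and 4.55 CPM in NT+GV and 3.69, 3.08 and 2.75 CPM in NT+noGV (log2 fold change 0.70 ± 0.16, edgeR adjusted p = 9.26e-04). Among the A and B type gamma genes PCDHGB4 rose in Ecto (0.51 ± 0.14 on the log2 scale) and PCDHGB5 fell in Endo (-0.27 ± 0.08, a call lost without NT+GV replicate 3).

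**Figure D2:**
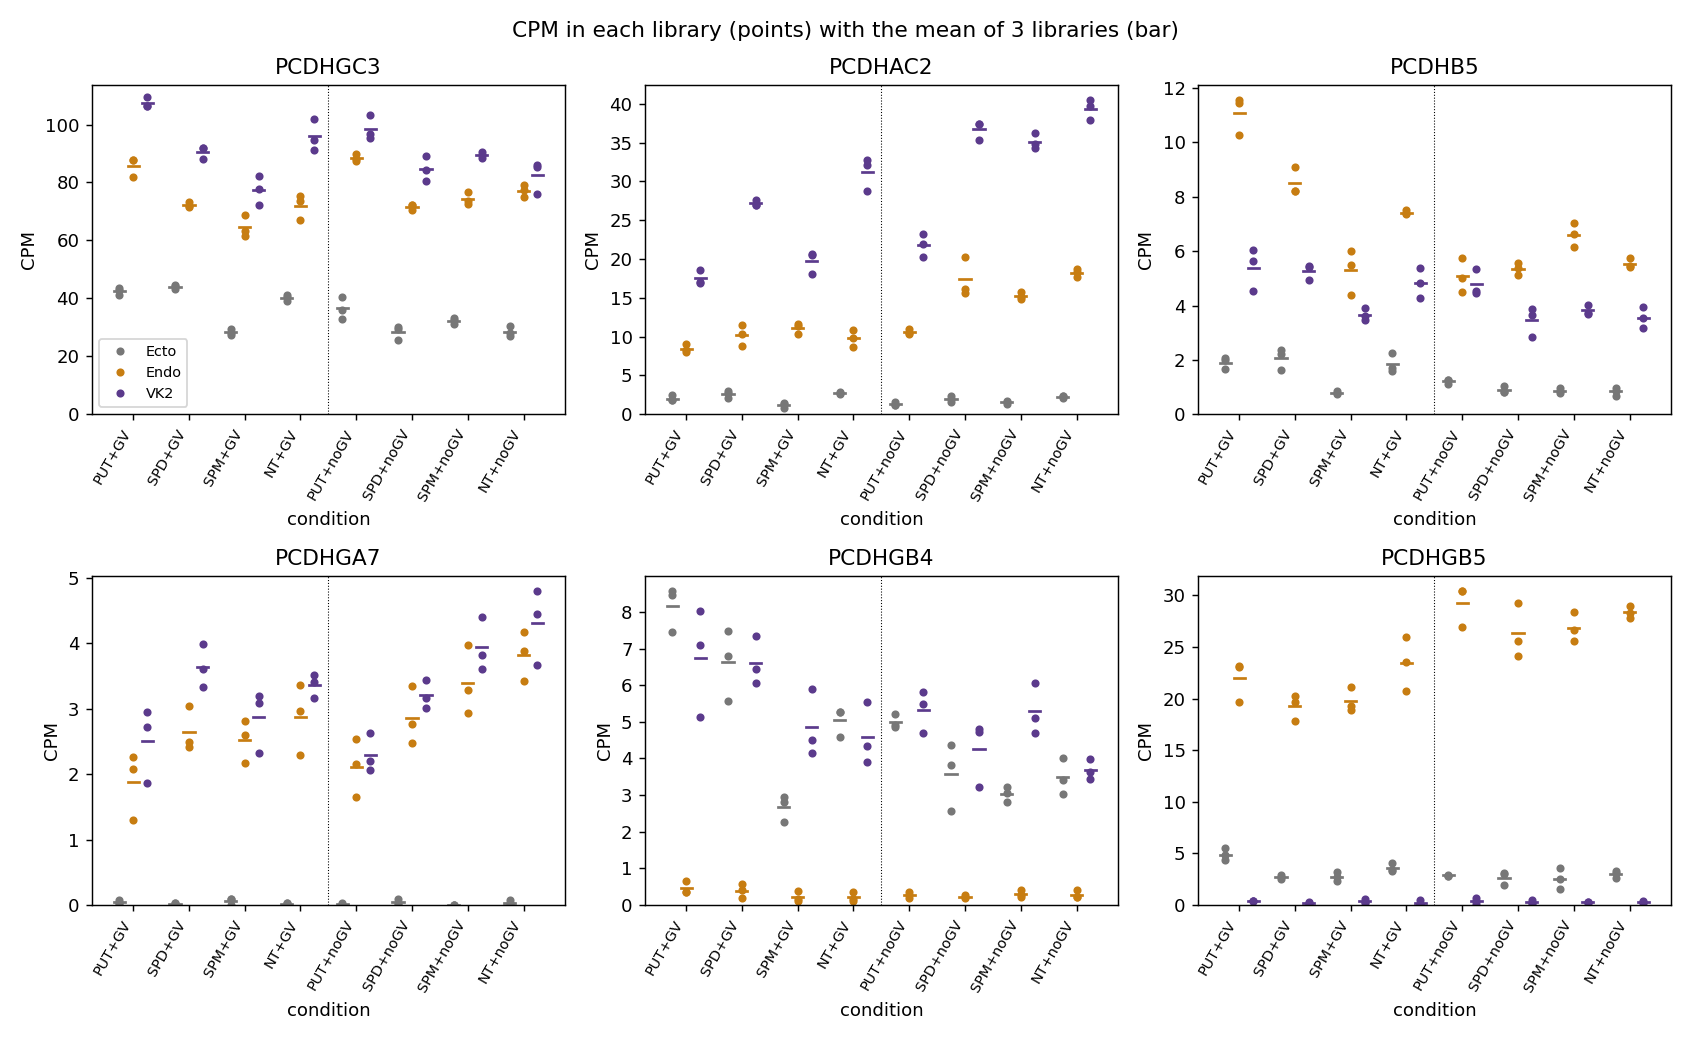
CPM of 6 members in each library (points) and the mean of 3 libraries (bar) for the 8 conditions, coloured by line; the dotted line parts the conditions with GV from those without. In VK2, PCDHAC2 was at 17.1, 18.5 and 16.9 CPM in PUT+GV and 32.8, 28.8 and 32.1 CPM in NT+GV, and in Ecto, PCDHGC3 was at 29.5, 27.3 and 28.1 CPM in SPM+GV and 40.6, 41.04 and 39.2 CPM in NT+GV.

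Putrescine, given at 4 mM, was followed by a lower PCDHAC2 and a higher PCDHGC3 in several comparisons, both with and without bacteria. In PUT+GV against NT+GV, 4 members rose and 1 fell in Ecto (31.5% and 24.9% of all genes), 7 rose and 4 fell in Endo (27.9% and 28.2%), and 6 rose and 4 fell in VK2 (29% and 31.4%). These shares of the tested members were below the background. Leaving out any 1 of the 6 compared libraries took the Ecto count of 5 to 2 or 3, and leaving out NT+GV replicate 2 or PUT+GV replicate 3 took the Endo count of 11 to 7. The comparisons of the 3 polyamines share their NT+GV or NT+noGV libraries, so they are not independent. In VK2 5 of the 6 keratinocyte markers fell in PUT+GV and 1 rose, with sums of 32682 to 34737 CPM in PUT+GV and 34128 to 37530.0 CPM in NT+GV, and their part was not tested.

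All of the alpha genes called in PUT+GV were lower. In VK2 PCDHAC2 had 17.1, 18.5 and 16.9 CPM in PUT+GV, against 32.8, 28.8 and 32.1 CPM in NT+GV (log2 fold change -0.83 ± 0.06, edgeR adjusted p = 1.40e-13). PCDHA12 fell with it (-0.77 ± 0.23 on the log2 scale), as did PCDHAC1 (-0.45 ± 0.16, a call lost without NT+GV replicate 1, PUT+GV replicate 2 or PUT+GV replicate 3, and with total-count scaling). In Endo PCDHA11 had 2.29, 1.84 and 2.04 CPM in PUT+GV, against 4.16, 4.04 and 4.39 CPM in NT+GV (log2 fold change -1.02 ± 0.15, edgeR adjusted p = 1.22e-06). For PCDHAC2 of VK2 and PCDHA11 of Endo the groups did not overlap. PCDHAC2 in Endo had 8.99, 8.03 and 8.27 CPM in PUT+GV and 8.70, 10.9 and 9.79 CPM in NT+GV and was not called (log2 fold change -0.21 ± 0.10, edgeR adjusted p = 0.0598). In Ecto it had 2.43, 1.80 and 1.85 CPM in PUT+GV, against 2.65, 2.72 and 2.92 CPM in NT+GV (log2 fold change -0.40 ± 0.17, edgeR adjusted p = 0.0490). The Ecto groups did not overlap, but the call was lost with total-count scaling, with no filter on low counts and with any of 15 libraries left out.

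The called beta genes and most called gamma genes were higher in PUT+GV. In Endo PCDHB5 had 11.6, 10.3 and 11.4 CPM in PUT+GV and 7.35, 7.38 and 7.50 CPM in NT+GV (log2 fold change 0.59 ± 0.09, edgeR adjusted p = 1.80e-06). PCDHB14 had 5.59, 5.19 and 6.25 CPM in PUT+GV and 3.22, 3.78 and 3.33 CPM in NT+GV (log2 fold change 0.73 ± 0.11, edgeR adjusted p = 2.70e-06), and it rose in VK2 too (0.83 ± 0.23 on the log2 scale). In Ecto PCDHGB4 had 7.47, 8.57 and 8.48 CPM in PUT+GV and 4.58, 5.28 and 5.27 CPM in NT+GV (log2 fold change 0.75 ± 0.13, edgeR adjusted p = 3.24e-05). The 3 PUT+GV libraries were above the 3 NT+GV libraries for each of these genes. PCDHGB6 rose in each line (1.09 ± 0.27 in Ecto, 0.47 ± 0.12 in Endo and 1.21 ± 0.40 in VK2 on the log2 scale), in VK2 only while NT+GV replicate 3 was kept. PCDHGC3 rose in Endo (0.26 ± 0.04) and VK2 (0.17 ± 0.05) and was not called in Ecto (0.13 ± 0.07).

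Without bacteria, PUT+noGV against NT+noGV, 5 members rose and 1 fell in Ecto (23.9% and 22.9% of all genes), 3 rose and 5 fell in Endo (15.6% and 16.3%), and 6 rose and 3 fell in VK2 (22% and 23%). These shares were near or below the background. The Endo count of 8 went to 5 without NT+noGV replicate 3. PCDHAC2 fell in all 3 lines. It had 20.3, 21.9 and 23.3 CPM in PUT+noGV, against 37.9, 40.5 and 39.7 CPM in NT+noGV VK2 cells (log2 fold change -0.84 ± 0.06, edgeR adjusted p = 2.37e-13). In Endo the values were 11.02, 10.5 and 10.4 CPM in PUT+noGV, against 17.7, 18.7 and 18.3 CPM in NT+noGV (log2 fold change -0.78 ± 0.09, edgeR adjusted p = 4.87e-08). In Ecto they were 1.24, 1.53 and 1.21 CPM in PUT+noGV, against 2.32, 2.04 and 2.40 CPM in NT+noGV (log2 fold change -0.75 ± 0.18, edgeR adjusted p = 0.00145). No PUT+noGV library reached its NT+noGV libraries in any line.

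PCDHGC3 rose in PUT+noGV in all 3 lines, to 36.1, 40.5 and 32.9 CPM in Ecto, against 26.9, 27.96 and 30.3 CPM in NT+noGV (log2 fold change 0.39 ± 0.07, edgeR adjusted p = 3.45e-05). It rose in Endo (0.20 ± 0.04 on the log2 scale, edgeR adjusted p = 5.31e-04) and in VK2 (0.27 ± 0.05, edgeR adjusted p = 2.27e-05). These 3 calls for PCDHGC3 and the 3 for PCDHAC2 were kept with each single library left out. PCDHGA7 fell in Endo, to 2.15, 1.64 and 2.54 CPM in PUT+noGV, against 3.88, 4.17 and 3.42 CPM in NT+noGV (log2 fold change -0.86 ± 0.18, edgeR adjusted p = 4.36e-04). It fell in VK2 as well, to 2.62, 2.06 and 2.20 CPM in PUT+noGV, against 4.79, 4.45 and 3.66 CPM in NT+noGV (log2 fold change -0.89 ± 0.15, edgeR adjusted p = 1.52e-05). In Ecto PCDHGA7 did not pass the filter. PCDHAC1 fell in Endo (-0.69 ± 0.13) and had -0.35 ± 0.16 in VK2, where it was not called (edgeR adjusted p = 0.0762).

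The effect of putrescine with GV minus its effect without GV was called for 1 member in Ecto, 6 in Endo and 1 in VK2, where 26.4%, 34.8% and 27.6% of all genes were called. In Endo the differences were positive for PCDHAC2 (log2 difference 0.57 ± 0.13, edgeR adjusted p = 0.00107), PCDHAC1 (log2 difference 0.78 ± 0.18, edgeR adjusted p = 9.65e-04) and PCDHB5 (log2 difference 0.70 ± 0.14, edgeR adjusted p = 1.39e-04). For PCDHAC2 this put the putrescine effect at -0.21 with GV and -0.78 without. In Ecto the single call was PCDHGC3 (-0.26 ± 0.09), which was lost with any of 9 libraries left out, and in VK2 it was PCDHGB1 (1.65 ± 0.58), lost with any of 7 left out and in DESeq2. All 3 counts were below the background.

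Spermidine at 400 µM changed few members. In SPD+GV against NT+GV, 1 rose and 0 fell in Ecto (6.53% and 6.6% of all genes), 1 rose and 1 fell in Endo (5.22% and 8.71%), and 1 rose and 1 fell in VK2 (4.84% and 7.87%). They were PCDHGB4 in Ecto (0.40 ± 0.14 on the log2 scale) and VK2 (0.51 ± 0.17), PCDHB14 (0.35 ± 0.12) and PCDHGB5 (-0.27 ± 0.08) in Endo, and PCDHAC2 in VK2 (-0.21 ± 0.06). None of these calls was kept with each library left out. In SPD+noGV against NT+noGV edgeR and DESeq2 called 0 members in every line, with 2, 6 and 3 members of Ecto, Endo and VK2 at an unadjusted edgeR p under 0.05. Of all genes 0.303%, 0.181% and 0.46% were called in either direction. The difference between the spermidine effects with and without GV was called for 0 members by edgeR and DESeq2 in each line, with 3, 0 and 1 members at an unadjusted p under 0.05, where 3.13%, 3.45% and 0.352% of all genes were called.

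Spermine before GV lowered members of all 3 clusters in Ecto. In SPM+GV against NT+GV, 0 rose and 12 fell in Ecto, where 28.5% and 27.5% of all genes rose and fell. In Endo 0 rose and 4 fell (21.9% and 21.1%), and in VK2 2 rose and 5 fell (27.9% and 30.3%). The share of tested members that fell was above the background in Ecto and below it in Endo and VK2. The share that rose was below it in each line. Members can pass the filter through groups where they are high, so these shares are a description only. The Ecto members that fell were the 1 tested alpha gene, 3 of 6 beta genes and 8 of 16 gamma genes, with median log2 fold changes of -1.15, -1.08 and -0.66, against -0.02 over all genes. The count went to 7 without SPM+GV replicate 3 in Ecto, and to 4 without SPM+GV replicate 1 in VK2. The 6 keratinocyte markers moved with this comparison: 6 of 6 fell in Ecto, 5 of 6 in Endo and 6 of 6 in VK2. Their summed level was 3884 to 4229 CPM in SPM+GV and 6036 to 6212 CPM in NT+GV of Ecto, 14030.0 to 14462 and 16130.0 to 17214 CPM in SPM+GV and NT+GV of Endo, and 27884 to 28097 and 34128 to 37530.0 CPM in SPM+GV and NT+GV of VK2. Their part in the members' change was not tested.

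In Ecto PCDHGC3 had 29.5, 27.3 and 28.1 CPM in SPM+GV, against 40.6, 41.04 and 39.2 CPM in NT+GV (log2 fold change -0.46 ± 0.07, edgeR adjusted p = 2.36e-06). PCDHAC2 had 1.44, 0.871 and 1.29 CPM in SPM+GV, against 2.65, 2.72 and 2.92 CPM in NT+GV (log2 fold change -1.15 ± 0.18, edgeR adjusted p = 8.25e-06). PCDHB5 had 0.734, 0.783 and 0.840 CPM in SPM+GV, against 1.58, 2.24 and 1.70 CPM in NT+GV (log2 fold change -1.17 ± 0.19, edgeR adjusted p = 1.08e-05). In all 3 genes every SPM+GV library was below every NT+GV library, and for PCDHGC3 and PCDHB5 the SPM+GV range overlapped with that of NT+noGV. PCDHGB4 had 2.81, 2.26 and 2.94 CPM in SPM+GV, against 4.58, 5.28 and 5.27 CPM in NT+GV (log2 fold change -0.87 ± 0.15, edgeR adjusted p = 2.54e-05), also without overlap. PCDHB14 (-1.35 ± 0.28 on the log2 scale) and PCDHGA9 (-1.22 ± 0.28) fell as well, and these 6 calls were kept with each library left out.

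In Endo PCDHB5 fell to 6.01, 4.39 and 5.48 CPM in SPM+GV, against 7.35, 7.38 and 7.50 CPM in NT+GV (log2 fold change -0.47 ± 0.10, edgeR adjusted p = 2.69e-04), the 1 of 4 Endo calls kept with each library left out. PCDHGC3 was at 61.4, 68.9 and 63.2 CPM in SPM+GV, against 75.4, 73.5 and 67.1 CPM in NT+GV (log2 fold change -0.15 ± 0.04, edgeR adjusted p = 0.00574). The ranges overlapped, and the call was lost without SPM+GV replicate 1. PCDHAC2, which fell in Ecto, had a log2 fold change of 0.19 ± 0.10 in Endo and was not called (edgeR adjusted p = 0.119).

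In VK2 PCDHAC2 fell to 20.5, 18.1 and 20.6 CPM in SPM+GV, against 32.8, 28.8 and 32.1 CPM in NT+GV (log2 fold change -0.61 ± 0.06, edgeR adjusted p = 3.68e-10). PCDHGC3 fell to 82.1, 77.8 and 72.1 CPM in SPM+GV, against 94.7, 102 and 91.03 CPM in NT+GV (log2 fold change -0.24 ± 0.05, edgeR adjusted p = 8.96e-05). PCDHGC5 fell to 2.93, 3.53 and 2.91 CPM in SPM+GV, against 5.25, 5.58 and 4.55 CPM in NT+GV (log2 fold change -0.64 ± 0.16, edgeR adjusted p = 9.94e-04). These 3 genes are C-type, and in each the groups did not overlap. The other members that fell were a beta gene and another gamma gene. PCDHB5 had 3.61, 3.45 and 3.90 CPM in SPM+GV, against 4.26, 5.38 and 4.82 CPM in NT+GV (log2 fold change -0.33 ± 0.13, edgeR adjusted p = 0.0312), without overlap. PCDHGB7 had 1.02, 1.62 and 0.839 CPM in SPM+GV, against 2.46, 1.53 and 1.86 CPM in NT+GV (log2 fold change -0.69 ± 0.26, edgeR adjusted p = 0.0218), with overlap. The PCDHB5 call was lost with any of 4 libraries left out, the PCDHGB7 call with any of 3, and both in DESeq2. PCDHA13 was the 1 called alpha gene that rose, with 0.376, 0.365 and 0.691 CPM in SPM+GV and 0.110, 0.0494 and 0.122 CPM in NT+GV (log2 fold change 2.26 ± 0.68, edgeR adjusted p = 0.00478), all of them low levels.

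**Figure D3:**
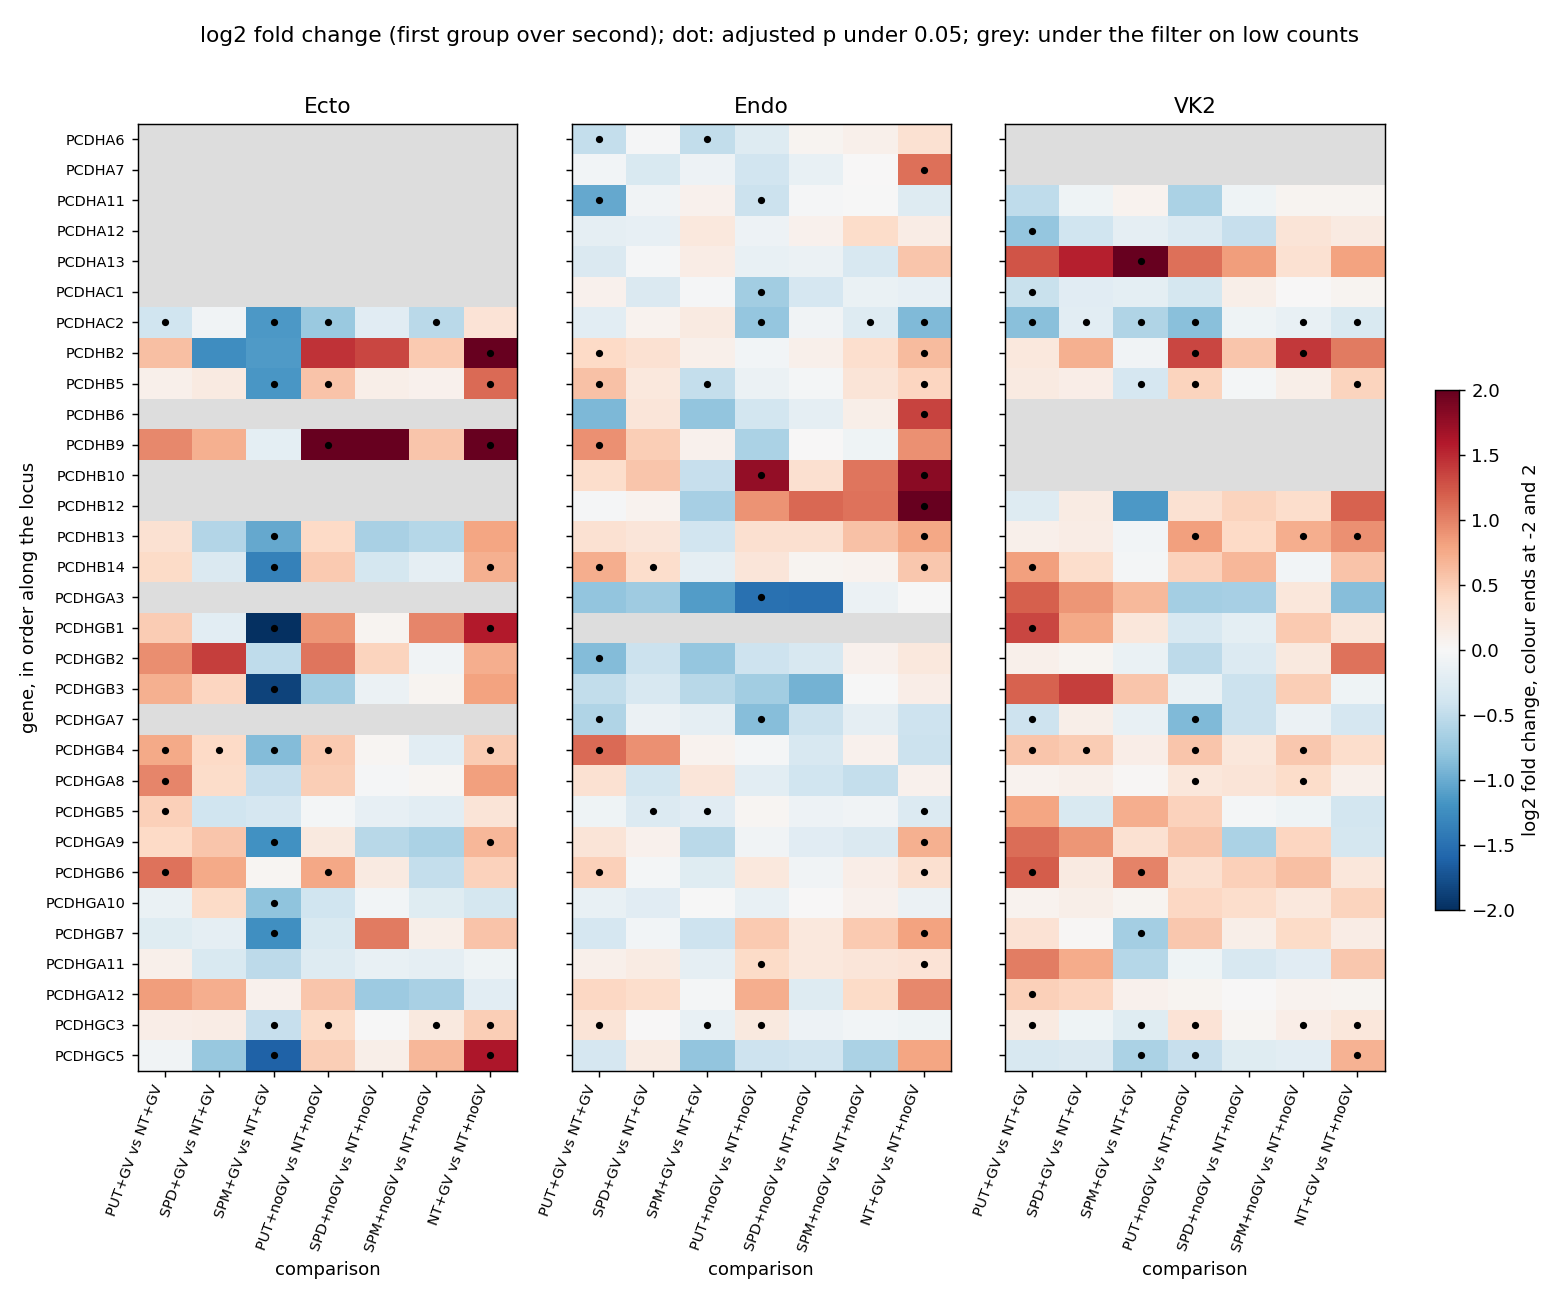
Log2 fold changes (colour, ending at -2 and 2) of the 31 members called in at least 1 treatment comparison, by line and comparison; dots mark an edgeR adjusted p under 0.05 and grey cells were under the filter on low counts. In the column SPM+GV vs NT+GV, 12 cells of Ecto carry a dot and all 12 are lower, and PCDHAC2 is lower in PUT+noGV vs NT+noGV in each line.

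In SPM+noGV against NT+noGV, 1 rose and 1 fell in Ecto (11.3% and 12.2% of all genes), 0 rose and 1 fell in Endo (8.02% and 10.1%), and 5 rose and 1 fell in VK2 (17.4% and 15.6%). PCDHAC2 was the member that fell in each line (-0.54 ± 0.18, -0.26 ± 0.09 and -0.15 ± 0.05 on the log2 scale in Ecto, Endo and VK2), and each of these calls was lost with any of 4 to 6 libraries left out, that of Endo also in DESeq2. The single call kept throughout was PCDHGA8 of VK2, with 12.4, 12.3 and 11.2 CPM in SPM+noGV and 9.13, 9.06 and 10.0 CPM in NT+noGV (log2 fold change 0.36 ± 0.08, edgeR adjusted p = 0.00102). The shares were below the background. The VK2 count of 6 went to 2 without NT+noGV replicate 3 and to 1 without SPM+noGV replicate 3.

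The spermine effect with GV minus that without GV was called for 6 members in Ecto, all lower (with 19% of all genes higher and 17.3% lower), for 1 higher and 3 lower in Endo (14.1% and 10.2%) and for 4 lower in VK2 (17% and 21.9%). The share that was lower was above the background in Ecto, near it in Endo and below it in VK2, again as a description only. In Ecto the differences included PCDHB5 (log2 difference -1.25 ± 0.28, edgeR adjusted p = 9.37e-04) and PCDHGC3 (log2 difference -0.66 ± 0.10, edgeR adjusted p = 5.47e-06). In Endo PCDHB5 was lower (log2 difference -0.72 ± 0.14, edgeR adjusted p = 2.28e-04) and PCDHAC2 higher (log2 difference 0.45 ± 0.13, edgeR adjusted p = 0.00988). In VK2 PCDHAC2 (log2 difference -0.46 ± 0.08, edgeR adjusted p = 3.59e-05) and PCDHGC3 (log2 difference -0.37 ± 0.07, edgeR adjusted p = 5.59e-05) were lower. PCDHGB1 of Ecto had the largest value of the called members (-3.99 ± 0.95 on the log2 scale), from counts of 1 or 2 in each SPM+GV library. The counts went to 3 without SPM+GV replicate 2 in Ecto and to 2 without NT+noGV replicate 3 in Endo.

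Spermine and spermidine differ by an additional aminopropyl group on spermine and were given at the same dose and for the same time, which allowed a direct comparison. In SPM+GV against SPD+GV, 0 members rose and 11 fell in Ecto (27.6% and 26.2% of all genes), 0 rose and 8 fell in Endo (23.4% and 21.2%), and 0 rose and 4 fell in VK2 (25.1% and 27.5%). The share that fell was above the background in Ecto, close to it in Endo and below it in VK2, again as a description only. PCDHB5 had 0.734, 0.783 and 0.840 CPM in SPM+GV, against 2.20, 1.63 and 2.35 CPM in SPD+GV Ecto cells (log2 fold change -1.35 ± 0.19, edgeR adjusted p = 1.27e-06). In Endo it had 6.01, 4.39 and 5.48 CPM in SPM+GV, against 8.20, 9.11 and 8.20 CPM in SPD+GV (log2 fold change -0.68 ± 0.10, edgeR adjusted p = 1.10e-06). PCDHGC3 had 29.5, 27.3 and 28.1 CPM in SPM+GV, against 44.4, 44.6 and 43.1 CPM in SPD+GV Ecto cells (log2 fold change -0.60 ± 0.07, edgeR adjusted p = 3.74e-08). These groups did not overlap. PCDHAC2 was lower after spermine in Ecto (-1.08 ± 0.19 on the log2 scale) and VK2 (-0.40 ± 0.06), whereas in Endo the compounds were not told apart (0.12, 95% interval -0.07 to 0.32). The Endo count of 8 went to 5 without SPD+GV replicate 1, SPD+GV replicate 2, SPM+GV replicate 2 or SPM+GV replicate 3. The VK2 count of 4 went to 8 without SPM+GV replicate 2 and to 2 without SPM+GV replicate 3.

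Without bacteria spermine and spermidine differed in 1 member each in Ecto (PCDHGC3, 0.21, 95% interval 0.07 to 0.35) and Endo (PCDHB5, 0.30, 95% interval 0.10 to 0.50), both higher after spermine on the log2 scale, and in 2 in VK2 (PCDHA12 higher, PCDHB14 lower). In either direction 20.4%, 12.6% and 28.3% of all genes were called. None of these 4 calls was kept with each library left out. For PCDHAC2 the differences were not called (Ecto -0.32, 95% interval -0.70 to 0.06, Endo -0.19, 95% interval -0.37 to -0.02, VK2 -0.05, 95% interval -0.17 to 0.06), which does not show that the compounds act alike. Putrescine was given at another dose and was not set against them.

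Whether the lines responded differently was tested as an interaction in the model over all lines. The responses to GV differed in 3 of 41 members for Endo against Ecto, 4 for VK2 against Ecto and 2 for VK2 against Endo, where 28%, 27.5% and 25.8% of all genes differed. The responses to putrescine with GV differed in 1, 1 and 2 members (24.8%, 35% and 22.4% of all genes), and those to spermine with GV in 5, 9 and 4 (25.8%, 31.6% and 24.6%). All 9 shares were below the background. PCDHAC2 carried the widest of the well-counted differences. Its spermine response was higher in Endo than in Ecto by 1.38 ± 0.18 on the log2 scale (edgeR adjusted p = 1.48e-08), and its GV response was lower in Endo than in Ecto (-1.17 ± 0.16, edgeR adjusted p = 2.67e-08).

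The summed levels, which do not depend on how exons shared within a cluster were divided, followed the leading members in some comparisons and not in others. Beta genes also share 31-base stretches with genes that are not members, from 6.07% of those of PCDHB1 to 22.5% of those of PCDHB8. How such reads were divided can touch the beta sum. In Ecto the beta sum was 2.66, 2.15 and 2.55 CPM in SPM+GV, against 4.38, 5.45 and 5.17 CPM in NT+GV and 2.34, 2.64 and 2.47 CPM in NT+noGV. The ranges of SPM+GV and NT+noGV overlapped. The Ecto gamma sum was 41.8, 36.8 and 38.3 CPM in SPM+GV, against 56.2, 59.7 and 56.8 CPM in NT+GV. In Endo the beta sum was 26.1, 24.7 and 26.5 CPM in PUT+GV, against 17.7, 17.8 and 18.8 CPM in NT+GV and 11.9, 12.2 and 11.7 CPM in NT+noGV, with no overlap of the 3 groups. In VK2 the alpha sum was 30.4, 30.4 and 27.1 CPM in PUT+GV, against 53.03, 41.8 and 49.0 CPM in NT+GV. The VK2 gamma sum was 121, 119 and 106 CPM in SPM+GV, against 138, 142 and 132 CPM in NT+GV. Where PCDHAC2 fell, the alpha sum was lower without overlap in some comparisons and overlapped in others. In VK2 it was 34.3, 34.4 and 34.1 CPM in PUT+noGV, against 52.98, 58.1 and 54.9 CPM in NT+noGV. In Endo it was 31.1, 34.7 and 33.01 CPM in PUT+noGV, against 43.3, 49.3 and 45.01 CPM in NT+noGV. The sum was also lower without overlap in SPM+GV of Ecto and VK2 and in SPM+noGV of Ecto. It overlapped in PUT+GV of Ecto, SPD+GV of VK2 and SPM+noGV of Endo and VK2. In Ecto it was 1.80, 2.64 and 1.92 CPM in PUT+noGV and 2.51, 2.42 and 2.66 CPM in NT+noGV, which overlapped, and PCDHA1 to PCDHA13 together had 0.558, 1.11 and 0.711 CPM in PUT+noGV and 0.195, 0.378 and 0.231 CPM in NT+noGV, without overlap. In VK2 the alpha sum was 53.03, 41.8 and 49.0 CPM in NT+GV and 52.98, 58.1 and 54.9 CPM in NT+noGV, with overlap, and in Endo it was 39.8, 39.3 and 37.9 CPM in NT+GV and 43.3, 49.3 and 45.01 CPM in NT+noGV, without overlap. No test was made on the sums.

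**Figure D4:**
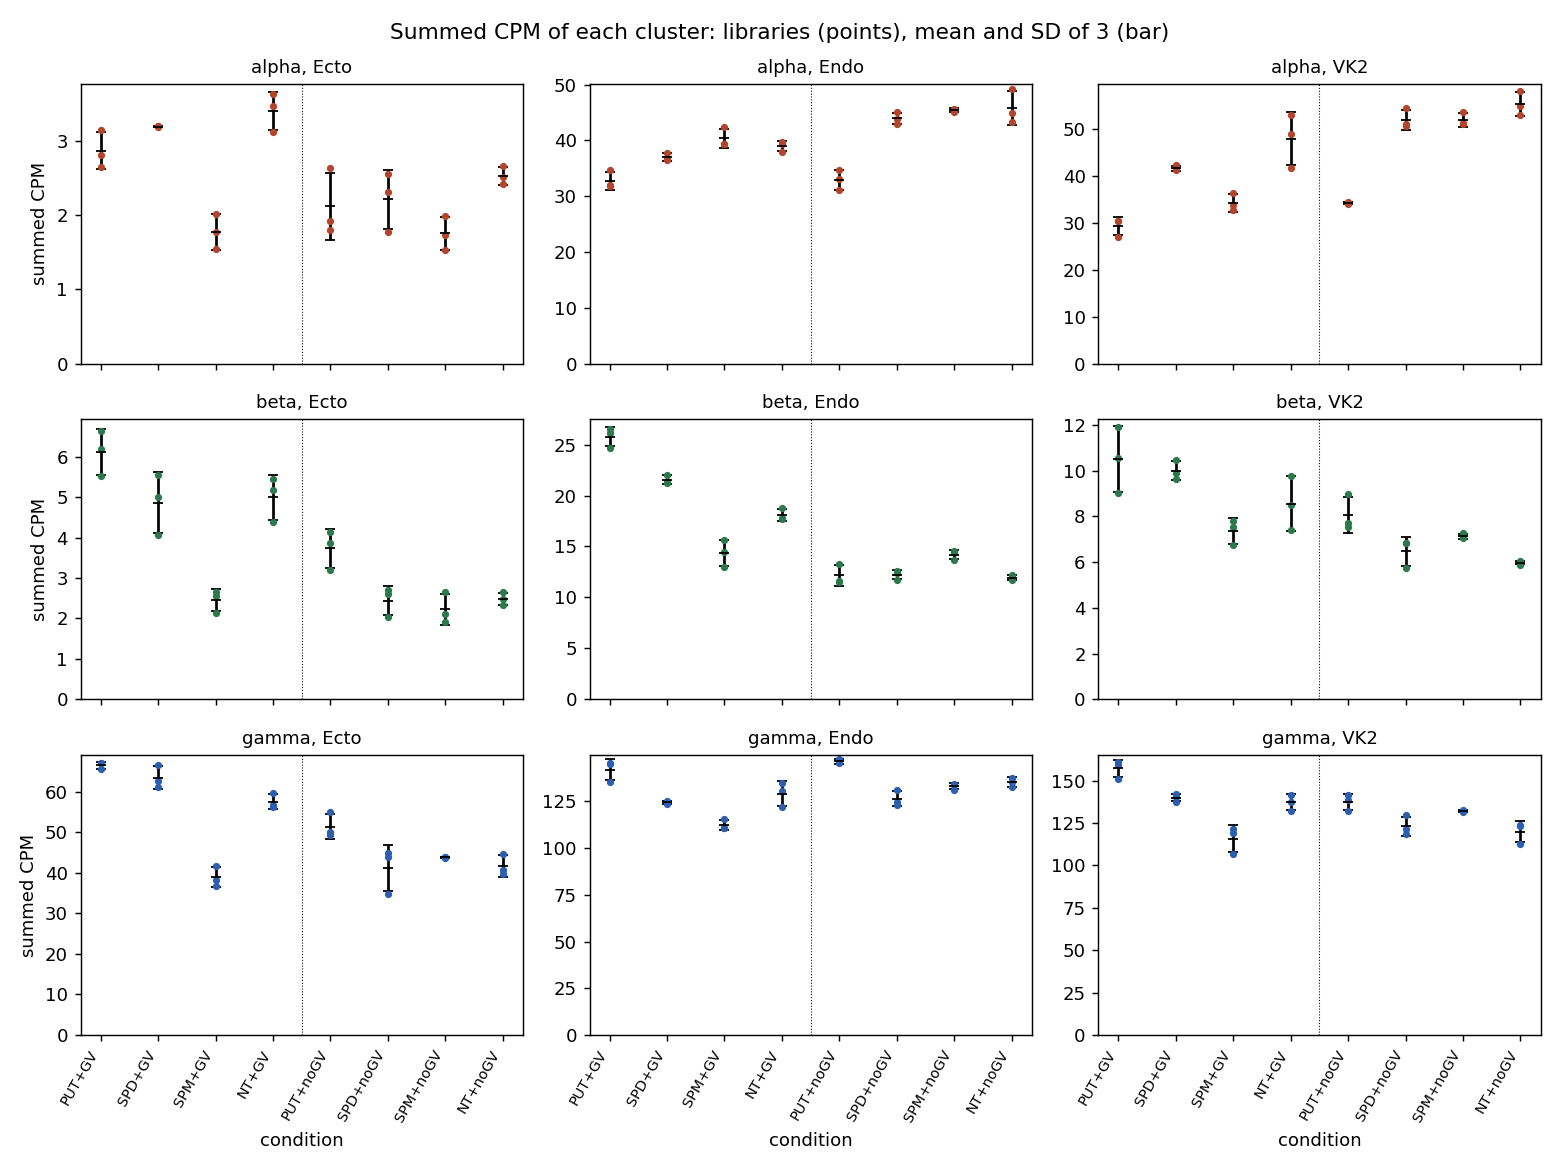
Summed CPM of the alpha, beta and gamma clusters (rows) in Ecto, Endo and VK2 (columns) for the 8 conditions; points are libraries and bars are the mean and SD of 3. The beta sum of Endo was highest in PUT+GV (26.1, 24.7 and 26.5) and that of Ecto lower in SPM+GV (2.66, 2.15 and 2.55) than in NT+GV (4.38, 5.45 and 5.17).

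Members of 1 cluster varied together to different degrees. Over the 8 condition means of a line, the correlation of log2 CPM between pairs of tested members had medians of 0.75 (Ecto), 0.82 (Endo) and 0.60 (VK2) for beta genes, of 0.63, 0.15 and 0.40 for gamma genes, and of 0.14 (Endo) and 0.53 (VK2) for alpha genes. These values are descriptions over 8 points that share libraries, and members of alpha and of gamma also share reads. Beta members can share reads too, since only 41.8-93.9% of the 31-base stretches of a beta member belonged to 1 gene alone. The closest pairs were PCDHB13 and PCDHB14 (0.92) and PCDHGB4 and PCDHGA9 (0.93) in Ecto, PCDHB4 and PCDHB9 (0.96) in Endo, and PCDHAC1 and PCDHAC2 (0.92) and PCDHGA4 and PCDHGA6 (0.94) in VK2.

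Other genes of the pathway are given for context, from lists chosen by function. Each list has the number tested in each line and the median log2 fold change over the tested genes. The lists in this paragraph are counted in SPM+GV and those in the next in PUT+GV, each against NT+GV. The counts of a list in the other comparison are not given. The medians over all genes were -0.0174, -0.0117 and -0.0169 in SPM+GV against NT+GV for Ecto, Endo and VK2, and 0.0745, 0.0263 and 0.0115 in PUT+GV against NT+GV. Of all genes 28.5% rose and 27.5% fell in Ecto, 21.9% and 21.1% in Endo and 27.9% and 30.3% in VK2 in SPM+GV, and 31.5% rose and 24.9% fell in Ecto, 27.9% and 28.2% in Endo and 29% and 31.4% in VK2 in PUT+GV, which are the shares to read the lists against. The non-clustered protocadherins lie outside the 3 clusters and have their own promoters. In SPM+GV 6 of them rose and 1 fell of 9 in Ecto (median 1.84). In Endo 5 rose and 2 fell of 9 (median 1.31), and in VK2 6 rose and 1 fell of 10 (median 1.67). PCDH10, a member of that family, had log2 fold changes of 4.31 ± 0.20, 2.61 ± 0.13 and 5.72 ± 0.21 there. Of the genes for promoter choice and cohesin, 5 rose and 1 fell of 11 in Ecto (median 0.11), 6 rose and 3 fell of 11 in Endo (median 0.15) and 4 rose and 6 fell of 11 in VK2 (median -0.12). CTCF binds the promoters of the clusters and is named here after its values were seen. It fell by 0.49, 0.24 and 0.19 on the log2 scale in SPM+GV, and rose in PUT+GV by 0.37, 0.13 and 0.22. In SPM+GV more genes of the promoter choice and cohesin list rose than fell in Ecto and Endo, and more fell than rose in VK2. The part of CTCF in the members' change was not tested. Of the genes known to silence the clusters or to take part in such silencing, 9 rose and 5 fell of 17 in Ecto (median 0.12), 9 rose and 4 fell of 17 in Endo (median 0.14) and 12 rose and 4 fell of 17 in VK2 (median 0.14) in SPM+GV. ATF7IP, a cofactor of the histone methyltransferase SETDB1, had 1.32 ± 0.08, 0.72 ± 0.04 and 0.52 ± 0.05 in the lines.

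Of the intracellular partners, 3 rose and 4 fell of 14 in Ecto (median -0.06), 3 rose and 9 fell of 15 in Endo (median -0.13) and 0 rose and 7 fell of 15 in VK2 (median -0.08) in PUT+GV. Among them CYFIP1 of the WAVE complex, to which alpha protocadherins bind in neurons, fell in each line (-0.97 ± 0.06, -0.93 ± 0.03 and -0.84 ± 0.04 on the log2 scale in Ecto, Endo and VK2). Of the proteases and gamma-secretase subunits that cut these proteins, 2 rose and 2 fell of 7 in Ecto (median -0.08), 2 rose and 4 fell of 7 in Endo (median -0.15) and 1 rose and 4 fell of 7 in VK2 (median -0.26), with the gamma-secretase subunit APH1A at -0.53 ± 0.04, -0.56 ± 0.03 and -0.62 ± 0.04. Of the genes that neighbour the clusters on chromosome 5, 8 rose and 2 fell of 14 in Ecto (median 0.25), 4 rose and 3 fell of 14 in Endo (median 0.07) and 4 rose and 5 fell of 14 in VK2 (median -0.03). TAF7, which lies between the beta and gamma clusters and encodes a subunit of the general transcription factor TFIID, rose by 0.93 ± 0.04, 0.76 ± 0.04 and 0.83 ± 0.05. None of these lists was tested against the members.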

How the data were processed

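Libraries of total RNA depleted of ribosomal RNA (Lexogen CORALL, a stranded kit with molecular identifiers) were sequenced, and the authors quantified them with Salmon on GENCODE 44 transcripts (their notes name GRCh38.p13 and R 4.32) and summed transcripts to genes. The deposited table holds estimated counts per gene, already whole numbers, for 62266 genes in 72 libraries. Whether reads were collapsed by identifier is not given in the sources used here. Members and lists were chosen with earlier results of these data known.

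Each line was fitted on its own with edgeR 4.0.16 (R 4.3.3, limma 3.58.1): filterByExpr, TMM scaling, quasi-likelihood fit with robust dispersion, 8 group coefficients over 24 libraries, Benjamini-Hochberg adjustment over the 19459 (Ecto), 18741 (Endo) and 18474 (VK2) genes tested, and a threshold of 0.05. Lines and differences between lines came from 1 model over 72 libraries (21195 genes). SEs were derived from the fold change and its F statistic. CPM values used TMM factors over all 72 libraries. CPM per kb divides by the merged length of all annotated exons of a gene, which can exceed each of its transcripts. For PCDHGA8 this length is 8657 bases, against 6480 and 4782 for its transcripts, so levels per kb can be understated unevenly. The fits were tested on simulated data. Alternatives were DESeq2 1.42.0, other scalings and filters, a replicate block, the compared groups only, and leaving out libraries. The members named are the C-type genes, the 3 most abundant of each cluster per line, and up to 3 per cluster, comparison and line with the smallest adjusted p, and a few others were named after their values were seen. Of the other lists, up to 3 genes with the smallest adjusted p could be named. Totals of 20152143 to 42767996 counts per library set the precision, and intervals cover the fit's error only. The marker lists not described in the results summed to 13.4 to 70.3 CPM (fibroblasts), 0.372 to 11.5 (leukocytes) and 0.372 to 3.76 (endothelium) over the lines. Tables and plots were made with Python 3.11.15, pandas 2.3.3, numpy 2.4.6 and matplotlib 3.10.9.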

Additional observations from a re-analysis of the deposited data

Results flagged for a closer look

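The responses of 13 members differed between lines in the model over all 72 libraries, in 31 differences whose interaction term had an edgeR adjusted p under 0.05. Each value is the log2 fold change in the first line named minus that in the other, with its SE. For GV (NT+GV against NT+noGV) 3 members differed for Endo minus Ecto, 4 for VK2 minus Ecto and 2 for VK2 minus Endo of 41 tested. PCDHAC2 had -1.17 ± 0.16, edgeR adjusted p = 2.67e-08 for Endo minus Ecto, -0.61 ± 0.16, edgeR adjusted p = 0.00170 for VK2 minus Ecto and 0.56 ± 0.12, edgeR adjusted p = 1.12e-04 for VK2 minus Endo, so that Endo stood lowest. PCDHGC3 had -0.60 ± 0.08, edgeR adjusted p = 5.87e-09 for Endo minus Ecto, -0.29 ± 0.08, edgeR adjusted p = 0.00313 for VK2 minus Ecto and 0.32 ± 0.08, edgeR adjusted p = 8.33e-04 for VK2 minus Endo. PCDHB5 had a smaller response in both other lines than in Ecto (-0.72 ± 0.20 for Endo and -0.71 ± 0.21 for VK2). PCDHB9 had -3.71 ± 1.36 for VK2 minus Ecto, from counts of 0, 2 and 0 in NT+GV and 1, 1 and 2 in NT+noGV of VK2, and 8, 8 and 3 in NT+GV and 2, 0 and 0 in NT+noGV of Ecto.

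For putrescine with GV (PUT+GV against NT+GV) 1 member differed for Endo minus Ecto (PCDHB5, 0.52 ± 0.18, edgeR adjusted p = 0.0237), 1 for VK2 minus Ecto (PCDHGA8, -0.85 ± 0.33, edgeR adjusted p = 0.0369) and 2 for VK2 minus Endo (PCDHAC2, -0.62 ± 0.12, edgeR adjusted p = 9.77e-05, and PCDHB4, 4.33 ± 1.57, edgeR adjusted p = 0.0376). The NT+GV libraries of VK2 held no PCDHB4 count and its PUT+GV libraries held 3, 7 and 2, so the size of its values here depends on the prior count of the fit.

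For spermine with GV (SPM+GV against NT+GV) 5 members differed for Endo minus Ecto, 9 for VK2 minus Ecto and 4 for VK2 minus Endo. For Endo minus Ecto the values were 1.38 ± 0.18 for PCDHAC2, 0.73 ± 0.21 for PCDHB5, 1.21 ± 0.28 for PCDHB14, 0.84 ± 0.30 for PCDHGA10 and 0.35 ± 0.08 for PCDHGC3, all positive. The PCDHGA10 call was lost with another scaling of the libraries (the relative log expression method). For VK2 minus Ecto they were 0.54 ± 0.18 for PCDHAC2, 0.82 ± 0.22 for PCDHB5, 1.31 ± 0.33 for PCDHB14, 0.99 ± 0.25 for PCDHGB4, 0.85 ± 0.34 for PCDHGA10 and 0.20 ± 0.08 for PCDHGC3. PCDHB3 (4.87 ± 1.26), PCDHB4 (5.83 ± 2.14) and PCDHGB1 (3.22 ± 0.91) differed too, with no count of PCDHB3 and 1 or 2 counts of PCDHGB1 in each SPM+GV library of Ecto. For VK2 minus Endo the values were -0.84 ± 0.12 for PCDHAC2, 2.06 ± 0.70 for PCDHA13, 4.77 ± 1.63 for PCDHB4 and 1.20 ± 0.42 for PCDHGB6. No group had more than 3 libraries, so single libraries that stand apart within a group were not looked for.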

How the results depend on the processing

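No fold change of a called member reversed under any setting. Counts and sums cannot reverse and were marked only as kept or moved. Scaling by the relative log expression method and a filter blind to the groups left every count within 1.5 times. Of the single calls, 40 of 251 were lost in DESeq2, 3 of 282 with that scaling, 12 of 251 with total counts only, 17 of 251 with no filter on low counts, 0 of 146 with the filter blind to groups and 11 of 223 with only the compared groups in the fit, and the cause was not tested. These totals hold only calls on members that the setting still tested, and the filter blind to groups was run within single lines only. A call on a member that a setting's filter removed was thus not counted as lost. The same holds for the fits with libraries left out. Low counts limit most members: 25, 11 and 17 of the 53 averaged fewer than 3 counts in Ecto, Endo and VK2.

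With a fold change of at least 2 added, which by its construction keeps fewer calls, the Ecto counts were 5 in NT+GV against NT+noGV, 1 in PUT+GV, 0 in SPD+GV, 1 in PUT+noGV, 0 in SPM+noGV, 0 in SPM+noGV against SPD+noGV and 0 in the putrescine by GV difference. The Endo counts were 4, 2, 0, 2, 0, 0 and 1 in the same order, with 0 in SPM+GV against NT+GV, 2 in SPM+GV against SPD+GV and 0 in the spermine by GV difference. The VK2 counts were 0 for GV, 2 in PUT+GV, 0 in SPD+GV, 1 in SPM+GV, 1 in PUT+noGV, 1 in SPM+noGV, 0 in SPM+GV against SPD+GV, 0 in SPM+noGV against SPD+noGV and 1 in the spermine by GV difference. The differences between lines had 1, 1 and 0 (GV), 0, 0 and 1 (PUT+GV), and 2 and 4 (SPM+GV, Endo minus Ecto and VK2 minus Ecto).

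DESeq2 called 3 members in PUT+GV of Ecto, 7 in PUT+GV, 1 in SPD+GV, 0 in SPM+noGV and 0 in SPM+noGV against SPD+noGV of Endo, and 1 in SPM+noGV against SPD+noGV and 0 in the putrescine by GV difference of VK2. Total counts only gave 2 in SPD+GV of Ecto and 2 in the putrescine by GV difference of VK2. No filter gave 2 in the putrescine by GV difference of Ecto, then 1 in SPD+GV, 2 in SPM+noGV and 3 in SPM+noGV against SPD+noGV of Endo, and in VK2 4 in SPD+GV, 7 in SPM+GV against SPD+GV, 1 in SPM+noGV against SPD+noGV, 3 in the putrescine and 1 in the spermidine by GV difference. With only the groups compared in the fit, Ecto had 4 in SPD+GV, 0 in SPM+noGV against SPD+noGV and 2 in the putrescine by GV difference, Endo had 1 in SPD+GV, 7 in SPM+GV, 2 in SPM+noGV and 3 in SPM+noGV against SPD+noGV, and VK2 had 7 in SPM+GV against SPD+GV. Counts divided by merged exon length put the share of PCDHB5 in the beta cluster at 41.2% in Ecto, 47.6% in Endo and 59.2% in VK2. The cause of these changes was not tested.

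The libraries were not treated as paired by replicate number, since the labels tie the numbers to no shared source and few same-numbered pairs correlated above 0.1. The correlation of same-numbered deviations had medians of 0.0154, 0.0267 and 0.0184 in Ecto, Endo and VK2, against -0.00905, -0.0165 and -0.00997 between other numbers, and 0, 7 and 0 of 84 pairs were over 0.1. That 16, 21 and 18 of 24 libraries were closest to their own number is a hint from the data, not from the design, that same-numbered libraries share something. With the replicate block 7 of 282 single calls were lost, and the counts were 0 in SPD+GV of Ecto, 2 in SPM+noGV against SPD+noGV of Endo, 1 in SPD+GV of VK2, and 2 (Endo minus Ecto) and 4 (VK2 minus Endo) for the difference between lines in PUT+GV. The other counts stayed within 1.5 times with the block.

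With 1 library, or all libraries of 1 replicate number, left out, the counts in Ecto ranged over 3 to 10 in NT+GV against NT+noGV, 2 to 7 in PUT+GV against NT+GV, 0 to 2 in SPD+GV against NT+GV, 7 to 12 in SPM+GV against NT+GV, 3 to 8 in PUT+noGV against NT+noGV, 0 to 2 in SPM+noGV against NT+noGV, 8 to 12 in SPM+GV against SPD+GV, 0 to 1 in SPM+noGV against SPD+noGV, 0 to 2 in the putrescine by GV difference and 2 to 8 in the spermine by GV difference. In Endo they ranged over 8 to 16 in NT+GV against NT+noGV, 7 to 12 in PUT+GV against NT+GV, 0 to 2 in SPD+GV against NT+GV, 2 to 5 in SPM+GV against NT+GV, 5 to 8 in PUT+noGV against NT+noGV, 0 to 2 in SPM+noGV against NT+noGV, 4 to 10 in SPM+GV against SPD+GV, 0 to 2 in SPM+noGV against SPD+noGV, 3 to 7 in the putrescine by GV difference and 1 to 6 in the spermine by GV difference. In VK2 they ranged over 3 to 6 in NT+GV against NT+noGV, 7 to 11 in PUT+GV against NT+GV, 0 to 3 in SPD+GV against NT+GV, 3 to 7 in SPM+GV against NT+GV, 6 to 11 in PUT+noGV against NT+noGV, 1 to 7 in SPM+noGV against NT+noGV, 2 to 8 in SPM+GV against SPD+GV, 0 to 2 in SPM+noGV against SPD+noGV, 0 to 3 in the putrescine by GV difference and 3 to 6 in the spermine by GV difference. The comparisons of untreated lines ranged over 30 to 35, 22 to 27 and 25 to 28. With 1 replicate number left out, the differences between lines (Endo minus Ecto, VK2 minus Ecto, VK2 minus Endo) ranged over 3 to 5, 2 to 3 and 2 to 3 for GV, 0 to 1, 0 to 2 and 0 to 3 for PUT+GV and 1 to 5, 4 to 7 and 2 to 2 for SPM+GV. Of the single calls, 466 of 4704 were lost with 1 library left out.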
